A study of Mus musculus with 64 samples.

Results

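The RNAs of 10 inflammatory cytokines and chemokines were followed in isolated mouse microglia. The genes are the interleukins Il1a and Il1b, the tumour necrosis factor gene Tnf, the CC chemokines Ccl2, Ccl3, Ccl4 and Ccl12, the CXC chemokines Cxcl10 and Cxcl16, and the transforming growth factor gene Tgfb1. They were picked by symbol from the 49671 genes of the counts table, and each matched 1 Ensembl identifier. Their counts were compared over 64 libraries in 16 groups of 4, formed by 2 brain regions (Hippocampus and Frontal_cortex), 2 phases (Day and Night) and 4 conditions (Soci, Cogn, Ctr0 and Ctr1). The mice were males of strain C57BL/6 by the labels and C57BL6/N by the methods, 9 to 10 weeks old, kept in a reversed light cycle, and no transgene or injected agent is named for them in the sources used here. What was done in the 4 conditions is not explained there, so their names are used as they stand. Whether replicates came from separate animals is not stated in the labels, and p-values measure only the spread between these libraries.

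The cells were dissociated mechanically in the cold after perfusion and captured with beads against CD11b, a surface protein that border macrophages, monocytes and neutrophils carry as well. All 10 microglia markers examined, among them P2ry12 and Tmem119, were detected, with a summed level of 9720 to 19809 CPM, that is, counts scaled to a common library size, in each library. The 10 border macrophage markers summed to 694 to 1594 CPM. The 8 markers of T and NK cells reached at most 2.57 CPM together, and none of them passed the filter on low counts. Total counts ran from 10.2 to 84.5 M with a median of 15.9 M. The clock repressor Nr1d1, whose RNA is known to peak in the light phase in many tissues, was at 4.23 ± 1.51 CPM in Day and 15.99 ± 6.995 CPM in Night in hippocampus (SD, n = 16 each). In frontal cortex it was at 3.84 ± 1.13 and 13.8 ± 7.31 CPM. Day and Night are given below as the labels of the libraries, and no value is tied to light or darkness.

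Interleukin 1 and tumour necrosis factor are alarm cytokines that microglia release on injury or infection, and that bind receptors on neurons, glia and vessels. Chemokines are small secreted proteins that draw in leukocytes through receptors coupled to G proteins, and most of their genes are kept low in resting microglia and switched on by NF-κB and interferon signalling. Tgfb1 stands apart from them, since its protein is held in a latent form and, once released, keeps microglia in their resting state.

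The spread of levels among the 10 genes was wide. Tgfb1 was read at 158 ± 16.1 CPM over the 64 libraries, with a lowest value of 123, a median of 158 and a highest of 197 CPM. Il1a, the interleukin kept in the cell until it is released by damage, lay between 19.4 and 62.5 CPM with a median of 37.7 CPM. Cxcl16, a membrane-bound chemokine that also acts as a scavenger receptor, lay between 11.1 and 27.3 CPM with a median of 14.5 CPM. These 3 genes had median counts of 2391, 607.5 and 237 reads per library and were the most precisely measured. Ccl12, a ligand of Ccr2, had a median of 4.35 CPM or 69 reads. The other 6 genes had medians under 2 CPM. Tnf was at 1.89 CPM, Ccl4 at 1.71 CPM and Ccl3 at 1.65 CPM, each with 27.5 to 30 reads in the median library. Il1b, the secreted interleukin, was at 0.971 CPM (14.5 reads). Ccl2, the main chemokine for monocytes, was at 0.646 CPM (11 reads), and the interferon-induced chemokine Cxcl10 at 0.388 CPM (7 reads).

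Divided by exon length, the order of mean levels was Tgfb1 at 31.4 CPM per kb, Il1a at 19.8, Ccl12 at 8.34, Cxcl16 at 4.94, Ccl4 at 2.72, Ccl3 at 2.36, Tnf at 1.23, Ccl2 at 0.755, Il1b at 0.531 and Cxcl10 at 0.219 CPM per kb. On this scale the mean level of Tgfb1 was 143 times that of Cxcl10. Ccl12, with the shortest exons at 537 bases, passed Cxcl16, whose exons span 3021 bases.

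Cxcl10, Ccl2 and Il1b were near the counting floor. A floor of 3 reads corresponded to 0.0355 to 0.295 CPM, depending on the depth of the library. Cxcl10 had 3 reads or fewer in 13 of 64 libraries, Ccl2 in 4 and Il1b in 1, and the remaining 7 genes in none. Fewer than 10 reads were found for Cxcl10 in 46 libraries, for Ccl2 in 27 and for Il1b in 9. Counting error alone gave a coefficient of variation of 37.8% for Cxcl10 at its median count, and libraries of one group differed by 49.8% (median over the 16 groups). For Ccl4 the corresponding values were 18.9% and 19.8%, so that the typical difference between its replicates was of the size of counting error. For Tgfb1 they were 2.05% and 9.43%, and for Il1a 4.06% and 15.4%, so the libraries differed by more than counting error gives. Floors and counting errors cover reads only and not the preparation of the libraries.

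**Figure D1:**
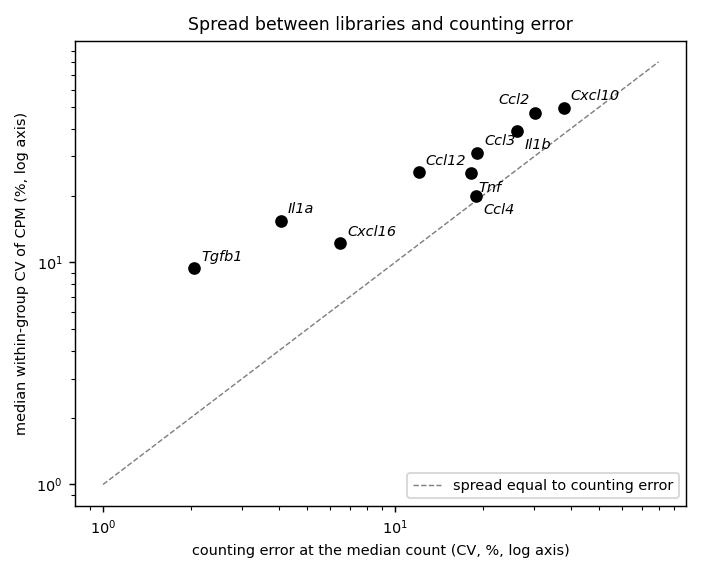
Median coefficient of variation of CPM among the 4 libraries of a group (vertical, %, log axis) against the counting error at the median read count (horizontal, %, log axis), 1 point for each of the 10 genes. Ccl4 sits near the dashed line of equal values, and Tgfb1 and Il1a lie well above it.

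The 10 genes lie on 5 chromosomes of build GRCm38. Il1a (ENSMUSG00000027399, chromosome 2, 129299610 to 129309972, minus strand) and Il1b (ENSMUSG00000027398, 129364570 to 129371139, minus strand) are 54.6 kb apart. On chromosome 11, Ccl2 (ENSMUSG00000035385, 82035571 to 82037453, plus strand) and Ccl12 (ENSMUSG00000035352, 82101845 to 82103400, plus strand) are 64.4 kb apart, and Ccl3 (ENSMUSG00000000982, 83647844 to 83649355, minus strand) and Ccl4 (ENSMUSG00000018930, 83662584 to 83664683, plus strand) are 13.2 kb apart. Cxcl16 (ENSMUSG00000018920, 70453983 to 70459984, minus strand) is on the same chromosome. Cxcl10 (ENSMUSG00000034855) is at 92346638 to 92348889 on the minus strand of chromosome 5, Tnf (ENSMUSG00000024401) at 35199381 to 35202007 on the minus strand of chromosome 17, and Tgfb1 (ENSMUSG00000002603) at 25687002 to 25705077 on the plus strand of chromosome 7. Exons of Il1a, Il1b, Cxcl10 and Cxcl16 overlap an annotated gene on the opposite strand (Gm14023, Il1bos, Art3 and Zmynd15). These overlapping genes had median counts of 4, 11, 6 and 51 reads, and counts were taken as stranded. Ccl12 and Ccl2, close relatives in sequence, shared no stretch of 50 bases with each other or with another annotated transcript. Of the 50-base stretches of Cxcl16 16.9% were shared with Zmynd15, 9.14% of those of Il1a with Gm14023, and 3.59% of those of Cxcl10 with Art3.

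Many cytokine mRNAs carry the pentamer ATTTA in the 3′ untranslated region, where decay factors such as Zfp36 bind. Over 20954 genes with such a region the median was 1.23 pentamers per kb. All 10 genes held at least 1, from 1.41 per kb in Cxcl16 to 29.9 per kb in Ccl12. Ccl3 had 12.2, Tnf 10.5, Il1b 8.71, Tgfb1 7.41, Ccl4 6.62, Ccl2 3.64, Cxcl10 3.01 and Il1a 2.73 per kb. The longer element TTATTTATT occurred in 7.59% of genes and, among the 10, in Tnf, with 5 copies. The windows of 30 bases with the most pentamers are given for 4 genes, with each pentamer in capitals, from GENCODE M21 transcripts. They set the 5 copies in the window of Tnf beside 3 in Il1b, 2 in Ccl12 and 1 in Tgfb1. Tnf held 8 pentamers in 764 bases, Il1b 4 in 459, Ccl12 5 in 167 and Tgfb1 1 in 135.
Tnf: attATTTAttATTTATTTAttATTTATTTA
Il1b: caaccacttacctATTTATTTAtgtATTTA
Ccl12: ATTTAaacaaacttgcttaaataatATTTA
Tgfb1: ccccgcccgcagcgcccggggctgtATTTA

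Promoters were read from RefSeq (GRCm38.p6) for the 7 genes listed there, which were Il1a, Il1b, Tnf, Ccl3, Ccl12, Cxcl10 and Tgfb1. Each covered 250 bases before and 50 after the start, and 4 motifs were searched on both strands. The consensus of NF-κB, given here by name, occurred in 8.46% of 32851 promoters, the interferon element GAAANNGAAA in 3.44%, the AP-1 element (TGACTCA or TGAGTCA) in 5.2% and the E-box CACGTG of clock factors in 7.15%. Cxcl10 held NF-κB matches starting 159 and 104 bases before its start, an AP-1 element at 74 and the interferon element at 213. Il1a held an AP-1 element 12 bases before its start, Tgfb1 an NF-κB match at 140, and the other 4 promoters none of these motifs. No promoter of the 7 held the E-box. The Cxcl10 promoter is shown over the 250 bases before the start and that of Il1a over the last 120 of these, because these hold the matches, which are in capitals and are letter matches in a window, not measured binding. Cxcl10 is at chr5:92348890-92349139 and the stretch of Il1a at chr2:129309973-129310092, both read on the minus strand.
Cxcl10: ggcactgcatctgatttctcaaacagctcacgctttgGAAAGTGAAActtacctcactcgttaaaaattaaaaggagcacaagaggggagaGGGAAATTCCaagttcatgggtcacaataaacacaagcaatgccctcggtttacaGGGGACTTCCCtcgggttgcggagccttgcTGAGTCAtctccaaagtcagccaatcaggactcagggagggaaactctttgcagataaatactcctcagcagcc
Il1a: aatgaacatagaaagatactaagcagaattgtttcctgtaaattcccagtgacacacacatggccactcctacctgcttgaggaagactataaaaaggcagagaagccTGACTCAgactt

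Day was compared with Night in hippocampus over 16 and 16 libraries. Il1a, Ccl4 and Cxcl16 were higher in Day, and the other 6 genes tested did not pass the threshold. The tenth, Cxcl10, was under the count filter and was tested apart. Among all 15527 genes tested, 42.2% passed at an adjusted p under 0.05, 23.4% as higher and 18.8% as lower in Day, so 3 of 9 was near the background of this contrast. Of the calls over all genes 55.5% were higher in Day, a split that was 6.10% with library totals in place of TMM scaling. Il1a ran from 29.0 to 55.5 CPM in Day (median 37.7) and from 19.4 to 42.1 CPM in Night (median 30.8). The ranges overlapped, and 15 of 16 Day libraries lay above the Night median. Its change was 0.38 ± 0.08 on the log2 scale (SE), or 1.30-fold, with an adjusted p of 0.000378 (edgeR quasi-likelihood test). Cxcl16 was at 15.3 ± 2.02 CPM in Day and 13.1 ± 1.54 CPM in Night (SD, n = 16 each), with 15 of 16 Day libraries above the Night median. This was a change of 0.26 ± 0.06 (SE, adjusted p = 0.00156, edgeR). Ccl4, a chemokine for macrophages and T cells, was between 1.55 and 3.38 CPM in Day (median 2.14) and between 0.832 and 2.38 CPM in Night (median 1.75). Its change was 0.39 ± 0.12 (SE, adjusted p = 0.0114, edgeR), with 14 of 16 Day libraries above the Night median. The Ccl4 call was lost under 7 of 16 alternatives, 2 of which left out the libraries of replicate 2 (adjusted p = 0.0868) or of replicate 3 (adjusted p = 0.135), and its change ran from 0.15 to 0.43. The calls of Il1a and Cxcl16 were each lost under 5 of 16, by scaling, covariates or a fit of replicate 4 alone, which called 0.736% of all genes, and held with each replicate number left out.

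The neighbour of Ccl4, Ccl3, was at 2.05 ± 0.868 CPM in Day and 1.71 ± 0.369 CPM in Night, and its change of 0.31 ± 0.16 (SE) did not pass (adjusted p = 0.131, edgeR). Tnf was lower in Day, at 1.70 ± 0.524 against 2.14 ± 0.697 CPM, with a change of -0.32 ± 0.16 that missed the threshold (adjusted p = 0.107). It passed under 2 of 16 alternatives (lowest adjusted p = 0.00417, edgeR), and its change ran from -1.04 to -0.18. Ccl12 changed by -0.11 ± 0.12, Ccl2 by 0.36 ± 0.23, Il1b by 0.06 ± 0.23 and Tgfb1 by 0.03 ± 0.04, with adjusted p-values between 0.208 and 0.846. For Tgfb1 the 95% interval of the change was -0.05 to 0.12, a narrow range around 0. For Ccl2 it was -0.09 to 0.80 and for Il1b -0.39 to 0.51, so these libraries could not show whether these sparse genes changed. Counting error at the median count was 30.2% for Ccl2 and 26.3% for Il1b. Libraries of one group differed by 47.0% and 39.1% (median over the groups), so the spread exceeded counting error.

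Cxcl10 had 90 reads over the 16 Day libraries of hippocampus and 214 over the 16 Night libraries. The Day libraries ran from 0.0539 to 0.687 CPM (median 0.318) and the Night libraries from 0.193 to 1.41 CPM (median 0.435). Of the Night libraries 14 of 16 lay above the Day median, and the ranges overlapped. A count at or under 3 reads was found in 6 Day libraries and in no Night library. The Day libraries were shallower, as Tgfb1 had 45212 reads in Day and 67695 in Night at mean levels of 159.9 and 160.5 CPM. Read totals and counts at the floor therefore also carry depth. The mean log2 CPM differed by -0.71 (Day minus Night, 2-sided permutation test with 100000 resamples, p = 0.00419). This p is unadjusted, and by edgeR 7703 of the 15527 genes tested in this contrast had an unadjusted p under 0.05. In frontal cortex Cxcl10 had 109 reads in Day and 155 in Night, at 0.533 ± 0.469 and 0.576 ± 0.330 CPM. The difference of -0.21 in mean log2 CPM there did not exceed the variation among libraries (2-sided permutation test, p = 0.477).

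In frontal cortex Tnf and Ccl12 were lower in Day, and the other 7 genes tested did not pass. The background was 41.8% of 14975 genes past the threshold, 20.6% higher and 21.3% lower in Day, so 2 of 9 was below it. Of all calls 49.2% were higher in Day, and 16.1% with library totals. Ccl12 ran from 2.97 to 6.85 CPM in Day (median 3.80) and from 3.33 to 9.54 CPM in Night (median 5.30). Of the Night libraries 14 of 16 were above the Day median, and the change was -0.36 ± 0.13 (SE, adjusted p = 0.0211, edgeR). Tnf ran from 1.22 to 2.58 CPM in Day (median 1.79) and from 1.42 to 3.54 CPM in Night (median 2.35), a change of -0.34 ± 0.14 (SE, adjusted p = 0.0454, edgeR). The Ccl12 call was lost under 5 of the 18 alternatives run, among them those without replicate 3 (-0.27, adjusted p = 0.153) or replicate 4 (-0.21, adjusted p = 0.274), and its change ran from -0.84 to -0.21. The Tnf call was near the threshold. It was lost under 14 of the 18, for example with DESeq2 (adjusted p = 0.0519), while its change stayed between -0.49 and -0.13. Il1a was at 46.7 ± 7.73 CPM in Day and 39.9 ± 8.71 CPM in Night, and its change of 0.22 ± 0.09 missed the threshold (adjusted p = 0.0575, edgeR). It passed under 6 of the 18 alternatives, among them DESeq2 (adjusted p = 0.0451). Cxcl16 changed by 0.18 ± 0.08 (adjusted p = 0.0798), Ccl4 by 0.13 ± 0.17 (adjusted p = 0.58), Tgfb1 by 0.08 ± 0.06, Ccl3 by 0.03 ± 0.25, Il1b by -0.33 ± 0.24 and Ccl2 by -0.60 ± 0.41.

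**Figure D2:**
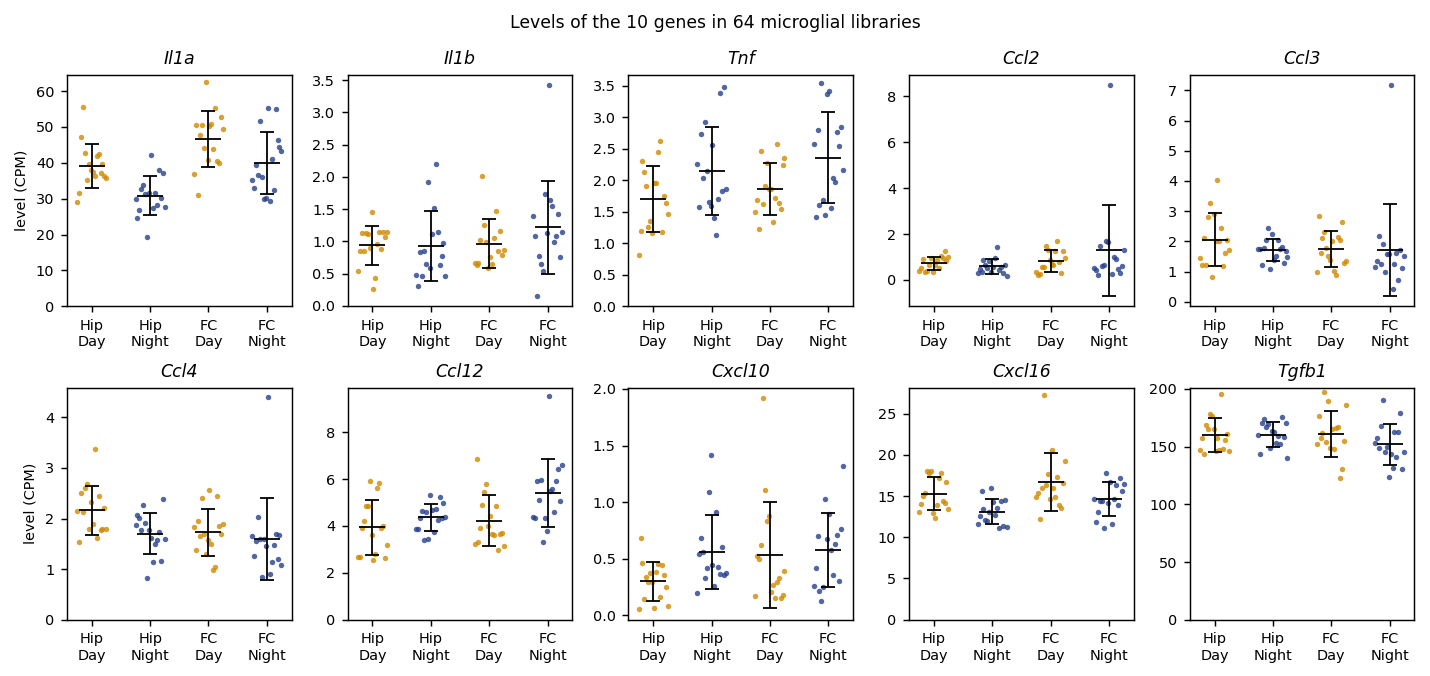
Level of each of the 10 genes (vertical, CPM) in the hippocampal (Hip) and frontal cortical (FC) libraries of each phase, with 16 points per column, the mean as a bar and the SD as whiskers. In hippocampus Il1a and Cxcl16 sit higher in Day, in frontal cortex Tnf and Ccl12 sit higher in Night, and a single frontal cortical Night library stands above the others for Il1b, Ccl2, Ccl3, Ccl4 and Ccl12.

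Whether the change between phases differed between regions was tested in a fit of all 64 libraries. None of the 10 genes passed, beside 1.19% of 16069 genes (0.33% with a positive and 0.859% with a negative difference, Hippocampus minus Frontal_cortex), and none had an unadjusted p under 0.05 (edgeR), while DESeq2 also called none. The nearest was Ccl2, with a change that was 0.91 ± 0.48 higher in hippocampus (unadjusted p = 0.0624, adjusted p = 0.546). For Il1a the difference was 0.12 ± 0.13, with a 95% interval from -0.13 to 0.37, and for Tnf -0.01 ± 0.21, from -0.43 to 0.40. A call in one region and not in the other is therefore not shown to be a difference between the regions.

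**Figure D3:**
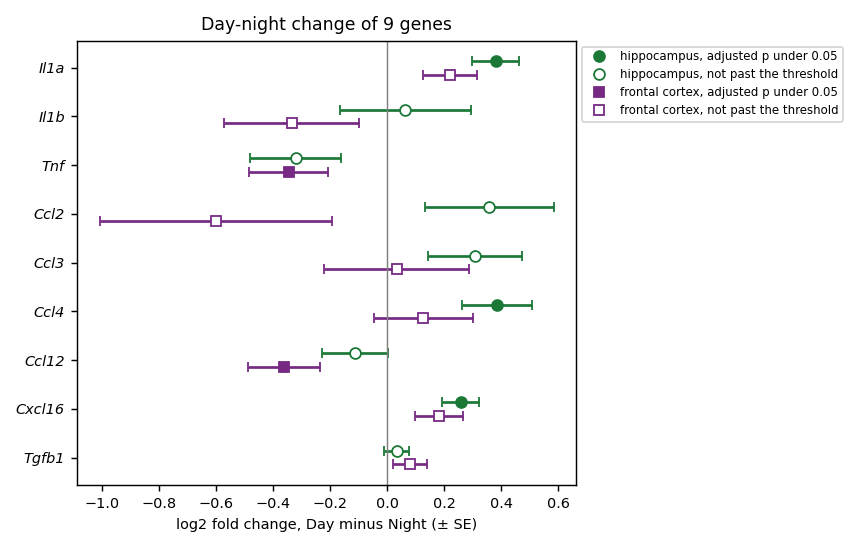
Log2 fold change of Day minus Night with its SE (horizontal) for the 9 genes past the count filter in hippocampus (circles) and frontal cortex (squares), filled where the adjusted p was under 0.05. The filled points are Il1a, Ccl4 and Cxcl16 in hippocampus, above 0, and Tnf and Ccl12 in frontal cortex, below 0.

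Markers of several cell types moved with the phase in the same libraries. In bulk RNA fewer cells of a type and less RNA per cell cannot be told apart. The 10 microglia markers summed to a median of 13167 CPM in Day and 11534 CPM in Night of hippocampus, and 7 of them were higher in Day past the threshold and none lower. In frontal cortex the medians were 14449 and 11927 CPM, and 4 were higher. All 10 border macrophage markers were higher in Day of hippocampus (summed range 946 to 1507 CPM in Day and 694 to 1131 CPM in Night), and 7 of 10 in frontal cortex (971 to 1594 and 787 to 1223 CPM). Of 8 astrocyte markers 7 were lower in Day in each region, with summed medians of 402 and 581 CPM in hippocampus and 462 and 813 CPM in frontal cortex. The remaining 1 was higher in Day past the threshold in hippocampus, and did not pass in frontal cortex. The 8 choroid plexus markers were all lower in Day of hippocampus, with summed medians of 263 and 1623 CPM. In frontal cortex, where Tnf and Ccl12 were lower in Day, 7 of 8 neuron markers were lower as well, with summed medians of 92.1 and 156 CPM, and 3 of 8 oligodendrocyte and 1 of 8 endothelial markers. In hippocampus 2 of 8 neuron, 6 of 8 oligodendrocyte and 5 of 8 endothelial markers were lower.

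With the score of the microglia markers as a covariate, added after seeing the data, the change of Il1a in hippocampus was 0.17 (adjusted p = 0.129, edgeR), that of Cxcl16 0.10 (adjusted p = 0.301) and that of Ccl4 0.21 (adjusted p = 0.291). Tnf then passed in hippocampus at -0.62 (adjusted p = 0.00694) and in frontal cortex at -0.49 (adjusted p = 0.012), and Ccl12 in frontal cortex at -0.60 (adjusted p = 9.33e-05). Of all genes 26.6% passed in that fit in hippocampus and 27.2% in frontal cortex. With the scores of border macrophages and of neutrophils and monocytes, none of the 9 genes passed in hippocampus, where Il1a was at 0.17 (adjusted p = 0.657), Ccl4 at 0.33 (adjusted p = 0.476) and Cxcl16 at -0.02 (adjusted p = 0.953). Of all genes 0.438% passed in this fit, in place of 42.2%. In frontal cortex 22.5% of all genes passed with the same scores, Il1a did so at 0.51 (adjusted p = 0.00857), and Tnf at -0.13 (adjusted p = 0.693) and Ccl12 at -0.25 (adjusted p = 0.342) did not. With the scores of 7 cell types none of the 9 passed in either region, beside 0.605% and 14.7% of all genes. The 3 calls in hippocampus were also lost with library totals in place of TMM, which moved the median change of all genes there by -0.16 and under which 27.6% of genes passed (27.1% in frontal cortex). Il1a was then 0.35 above that median and Tnf stood at -0.35 from it. The part of cell composition in the changes was not tested.

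The 4 conditions were compared within each region over 8 libraries each, averaged over the phases. None of the 10 genes passed in either region, beside 0.0% of the 16826 genes tested in hippocampus, and 0.0% of the 16238 tested in frontal cortex. At an unadjusted p under 0.05 there were 0 and 1 of the 10 genes, and 1090 and 1094 of all genes (edgeR), and DESeq2 also called 0 of the 10 in each region. The gene was Ccl4 in frontal cortex (unadjusted p = 0.00192, adjusted p = 0.72). It was at 2.33 ± 1.38 CPM in Night and 2.31 ± 0.326 CPM in Day for Soci, and at 1.05 ± 0.207 and 1.61 ± 0.215 CPM for Cogn (SD, n = 4 each). The 6 pairs of conditions in each region gave no call among the 10 genes, beside 0.0% to 0.0119% of all genes, and Ccl4 between Soci and Cogn differed by 0.82 ± 0.21 (adjusted p = 0.899).

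Tnf had its highest group means in Night Soci of both regions, at 3.08 ± 0.475 CPM in frontal cortex and 2.79 ± 0.485 CPM in hippocampus, and its lowest in Day Soci of hippocampus, at 1.47 ± 0.564 CPM (SD, n = 4 each). Whether the change between phases differed among conditions was tested directly, and none of the 10 genes passed, beside a background of 0.0% (hippocampus) and 0.00616% (frontal cortex). No gene of the 10 had an unadjusted p under 0.05 (edgeR), and DESeq2 called 0 in each region. For Tnf the unadjusted p was 0.137 in hippocampus and 0.0746 in frontal cortex (adjusted p = 0.999 and 1.0). In the order of the 16 group means, each group overlapped its neighbour for all 10 genes, and the ratio of the highest to the lowest group mean ran from 1.17 for Tgfb1 to 6.34 for Ccl2.

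The most uneven library was Frontal_cortex Night Soci replicate 3. It had the highest level of the 64 libraries in 5 of the 10 genes, Il1b, Ccl2, Ccl3, Ccl4 and Ccl12. Ccl2 was at 8.48 CPM there (104 reads) and at 0.516, 0.611 and 0.490 CPM in the other 3 libraries of its group. Ccl3, a chemokine for macrophages and other leukocytes, was at 7.18 CPM against 1.14, 1.91 and 0.707 CPM. Ccl4 was at 4.404 CPM against 1.65, 1.59 and 1.69 CPM, and Ccl12 at 9.54 CPM against 4.39, 5.95 and 5.93 CPM. Il1b was at 3.43 CPM against 1.39, 0.652 and 1.09 CPM. The Ccl2 level was 4.97 times the next highest of all libraries, and those of the other 4 genes were 1.30 to 1.78 times it. The library did not lead the 16 Night libraries of its region in any marker list of another cell type, ranking 8 of 16 for border macrophages, 5 for neutrophils and monocytes and 4 for the dissociation response, and 3 for microglia. The neutrophil and monocyte sum was mostly Csf3r, at a mean of 302 CPM in these 16 libraries, where the list had a median of 344 CPM. The rank on that sum therefore says little of the other genes of the list, and the part of other cell types was not tested. Without it, also a choice made after seeing the data, the Day minus Night change in frontal cortex became -0.00395 for Ccl2 (from -0.60), 0.35 for Ccl3 (from 0.03) and 0.29 for Ccl4 (from 0.13, adjusted p = 0.0776). Il1a then passed (0.26, adjusted p = 0.0225), Ccl12 still passed (-0.29, adjusted p = 0.0429) and Tnf no longer did (-0.30, adjusted p = 0.0764).

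A further library, Frontal_cortex Day Soci replicate 2, was highest of the 64 in Cxcl10, Cxcl16 and Tgfb1. Cxcl10 was at 1.92 CPM (20 reads) against 0.166, 0.207 and 0.330 CPM in its group, and Il1b at 2.01 CPM against 0.665, 0.760 and 0.857 CPM. Cxcl16 was at 27.3 CPM, 1.33 times the next highest library. In the same library the neutrophil gene S100a8 was at 45.6 CPM against 1.45 to 6.56 CPM in the other 3 of its group, S100a9 at 25.7 CPM and Ngp at 29.0 CPM, each the highest of the 16 Day libraries of the region. Its summed dissociation response genes, at 464 CPM, and its summed microglia markers, at 19809 CPM, were the highest of these 16 as well. Without it, a choice made after seeing the data, Cxcl10 differed between Day and Night of the region by -0.34 in mean log2 CPM (permutation test, p = 0.215). Ccl12 then changed by -0.38 (adjusted p = 0.0184, edgeR) and Tnf by -0.34 (adjusted p = 0.0616).

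**Figure D4:**
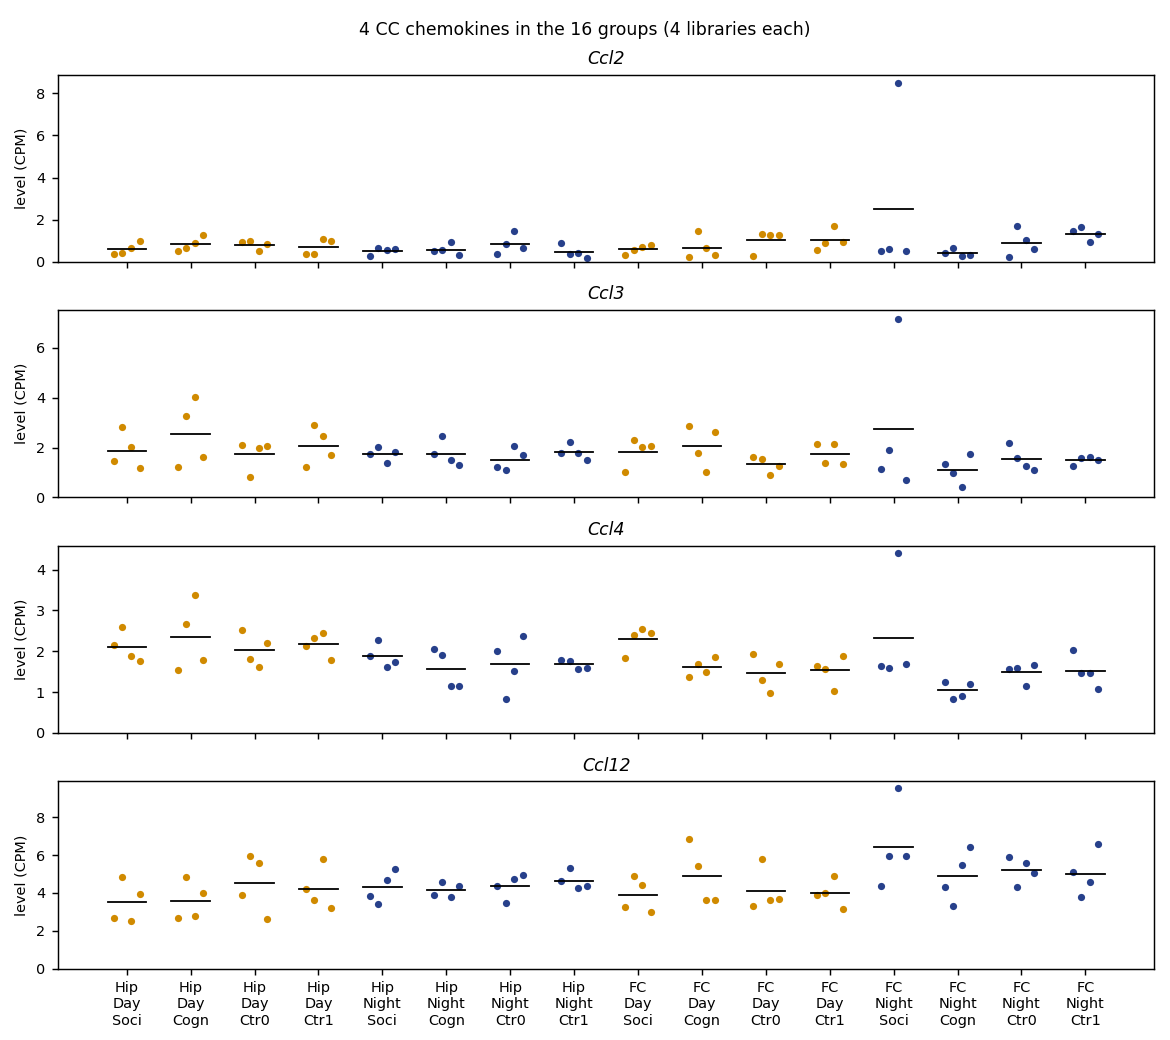
Level of Ccl2, Ccl3, Ccl4 and Ccl12 (vertical, CPM) in each of the 16 groups of region (Hip, hippocampus, and FC, frontal cortex), phase and condition, with 4 points per group and the mean as a line. The third Night Soci library of frontal cortex, at 8.48, 7.18, 4.404 and 9.54 CPM, is the highest point in each panel.

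Il1a differed between the regions. The difference, Hippocampus minus Frontal_cortex, was -0.31 ± 0.06 on the log2 scale (SE, adjusted p = 0.000199, edgeR), beside 16.6% of 16069 genes past the threshold, 10.4% higher and 6.17% lower in hippocampus. Of these calls 62.8% were higher in hippocampus, 33.6% with library totals and 45.9% with the genes above 1% of all counts left out of the scaling. Mean levels in hippocampus were 39.1 ± 6.18 CPM for Day and 30.8 ± 5.48 for Night, and those in frontal cortex 46.7 ± 7.73 for Day and 39.9 ± 8.71 for Night (SD, n = 16 each). The fit took the libraries as independent, and whether both regions came from the same mice is not stated. Libraries of the same phase, condition and number correlated across regions with a median of -0.006 (-0.597 to 0.634). The Il1a call held under 13 of 14 alternatives, also with a block of phase, condition and number. The other 9 genes did not pass. Cxcl16 differed by -0.14 ± 0.05 (adjusted p = 0.056) and Ccl2 by -0.63 ± 0.24 (adjusted p = 0.0617), and the Ccl2 difference was -0.34 (adjusted p = 0.201) without the Night Soci library named above. Ccl4 was 0.21 ± 0.11 higher (adjusted p = 0.168), and 0.28 higher without that library (adjusted p = 0.026). Tgfb1 differed by 0.03 ± 0.04, with a 95% interval from -0.04 to 0.11. Microglia markers were lower in hippocampus for 3 of 10 and border macrophage markers for 3 of 10, neutrophil and monocyte markers were lower for 6 of 9 tested, and choroid plexus markers were higher for 8 of 8. The part of cell composition in the Il1a difference was not tested.

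Across libraries of the same group several of the 10 genes varied together. Of 45 pairs, compared on log2 CPM after subtracting the 16 group means, 13 passed an adjusted p of 0.05, each with a positive correlation. The permutation tests took the 64 values of a gene as free, although 16 group means had been subtracted. Their p-values are therefore too small, and the count of 13 may be too high. Ccl3 and Ccl4 had r = 0.59 and rho = 0.53 (n = 64, permutation test, p = 1e-05 for each, adjusted p = 9e-05 and 0.000112, where 1e-05 is the smallest the resamples can give). The correlation was 0.48 without the 2 libraries farthest from the median of Ccl3, 0.63 within hippocampus, 0.57 within frontal cortex and 0.35 in frontal cortex without the Night Soci library. Cxcl16 and Tgfb1 had r = 0.62 and rho = 0.59 (adjusted p = 9e-05 and 0.000112), 0.53 without the 2 farthest libraries, 0.69 in hippocampus and 0.59 in frontal cortex. Il1a and Ccl12 had r = 0.58 and rho = 0.58 (adjusted p = 9e-05 and 0.000112), 0.57 without the 2 farthest, 0.52 in hippocampus and 0.63 in frontal cortex. The neighbours Il1a and Il1b had r = 0.04, and Ccl2 and Ccl12 r = 0.16, neither past the threshold. The points share libraries, and with them depth and the mix of cells. No share of pairs over all genes was computed to set beside the 13 of 45. Among 10940 genes compared by the same measure, the top 5% had r above 0.574 with Il1a, beside 0.577 for Ccl12. With Cxcl16 they had r above 0.583, beside 0.62 for Tgfb1.

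The genes whose levels varied most like those of the 3 abundant genes were taken from 10940 genes by the same measure, as a description over 64 libraries. For Il1a they were Irgm2 (r = 0.84), Tmem144 (0.81) and Etv5 (0.81). For Cxcl16 they were Ctsa (0.77), Npc2 (0.76) and Rac2 (0.76), and for Tgfb1 Hs6st1 (0.88), Fscn1 (0.87) and Spi1 (0.87). Irgm2 is an interferon-induced GTPase, Ctsa and Npc2 act in the lysosome, and Spi1 is the transcription factor PU.1 of macrophages. The top 5% of the genes compared had r above 0.57, 0.58 and 0.55 with Il1a, Cxcl16 and Tgfb1.

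The lists that follow are to be set beside all genes tested, of which 23.4% were higher and 18.8% lower in Day of hippocampus, and 20.6% and 21.3% in frontal cortex. Of 41 other ligands, 21 could be tested between Day and Night in hippocampus, where 7 (33.3%) were higher and 6 (28.6%) lower in Day, and 23 in frontal cortex, with 6 (26.1%) higher and 5 (21.7%) lower, near the shares of all genes. The 20 ligands under the filter in hippocampus included Ccl5, Ccl22, Cxcl1, Cxcl2, Cxcl9 and Il10. Tgfb2, a relative of Tgfb1, was at 6.49 ± 1.97 CPM in Day and 16.01 ± 5.70 CPM in Night of hippocampus, a change of -1.25 ± 0.16 (adjusted p = 1.55e-07, edgeR), and changed by -0.86 ± 0.23 in frontal cortex. The ligand Cxcl12 changed by -0.51 ± 0.19 in hippocampus and Cxcl14 by -1.20 ± 0.22 in frontal cortex. On the other side, Il16 rose by 0.35 ± 0.04 in hippocampus, the chemokine Ccl9 by 0.40 ± 0.09 in frontal cortex, and Pf4, which is also a border macrophage marker, by 0.39 ± 0.15 and 0.36 ± 0.14.

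Among 25 receptors, 20 were tested. In hippocampus 10 of 20 were higher and 4 lower in Day, beside 23.4% and 18.8% of all genes, and in frontal cortex 6 and 2 of 20, beside 20.6% and 21.3%. Ccr2, the receptor of Ccl2 and Ccl12 and also a monocyte marker, was at 15.2 ± 5.77 CPM in Day and 11.1 ± 4.15 CPM in Night of hippocampus (0.49 ± 0.18, adjusted p = 0.0246, edgeR). Ccr1, which binds Ccl3, rose by 0.38 ± 0.12 there, while the TGF-beta co-receptor Tgfbr3 fell by 0.91 (SE 0.14) and the scavenging receptor Ackr3 by 0.49 (SE 0.14). In frontal cortex the tumour necrosis factor receptor Tnfrsf1a was at 102 ± 15.4 CPM in Day and 79.9 ± 12.4 CPM in Night (0.36 ± 0.07, adjusted p = 0.000252). The interleukin 1 receptor Il1r1 changed by 0.67 ± 0.23 there, and Ccrl2, which binds chemerin without signalling, by -0.35 ± 0.14.

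The 23 genes of processing and release were all tested, with 10 (43.5%) higher and 6 (26.1%) lower in Day of hippocampus, beside 23.4% and 18.8% of all genes, and 9 (39.1%) and 6 (26.1%) in frontal cortex, beside 20.6% and 21.3%. Adam10, the protease known to shed Cxcl16 from the cell surface, was at 289 ± 29.5 CPM in Day and 221 ± 26.9 CPM in Night of hippocampus (0.42 ± 0.06, adjusted p = 8.99e-07, edgeR), and rose by 0.39 ± 0.07 in frontal cortex. The integrin subunit Itgb5 rose by 0.51 ± 0.06 and 0.57 ± 0.08. Itgb8, whose integrin releases active TGF-beta from its latent complex, fell by 1.68 (SE 0.18) in hippocampus and by 1.02 (SE 0.25) in frontal cortex, and Ltbp3, a protein that stores latent TGF-beta, by 1.19 (SE 0.15) and 0.60 (SE 0.12).

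Of the 21 genes of mRNA decay and feedback, 10 (47.6%) were higher and 1 (4.76%) lower in Day of hippocampus, beside 23.4% and 18.8% of all genes, and 7 (33.3%) and 2 (9.52%) in frontal cortex, beside 20.6% and 21.3%. Tsc22d3, the glucocorticoid-induced gene known as GILZ, was at 66.7 ± 21.8 CPM in Day and 26.7 ± 14.6 CPM in Night of hippocampus (1.36 ± 0.20, adjusted p = 2.81e-06, edgeR) and changed by 1.496 ± 0.205 in frontal cortex. Zfp36l2, which binds ATTTA elements and hastens decay, rose by 0.45 ± 0.07 and 0.46 ± 0.07. Tnip1, which restrains NF-κB with Tnfaip3, fell by 0.17 (SE 0.06) and 0.21 (SE 0.06), and Tnip2 changed by -0.17 ± 0.05 in frontal cortex. Of 19 genes of TGF-beta signalling, 14 (73.7%) were higher and 1 (5.26%) lower in hippocampus, and 15 (78.9%) and 0 in frontal cortex, beside the same shares of all genes, while Tgfb1 itself did not pass in either. The induced gene Tgfbi rose by 0.51 ± 0.08 in hippocampus and by 0.39 ± 0.09 in frontal cortex, and Ltbp4 changed by -0.52 ± 0.14 in hippocampus. Cx3cr1 among the receptors and Sall1 in this list are also microglia markers.

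The median change over the tested genes of TGF-beta signalling was 0.20 in hippocampus and 0.22 in frontal cortex, and that of all genes tested was 0.02 and -0.02. For mRNA decay and feedback it was 0.14 and 0.11, for receptors 0.19 and 0.07, for processing and release 0.08 and 0.01, and for other ligands 0.14 and -0.03. With the scores of border macrophages and of neutrophils and monocytes in the fit, no gene of the 5 lists passed in hippocampus, where 0.438% of all genes did. Pf4 and Ccr2 are themselves part of those scores. With library totals the list of TGF-beta signalling had 4 calls in hippocampus and 7 in frontal cortex, in place of 15 in each. The marker lists given above moved with these groups too, and their part was not tested.

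**Figure D5:**
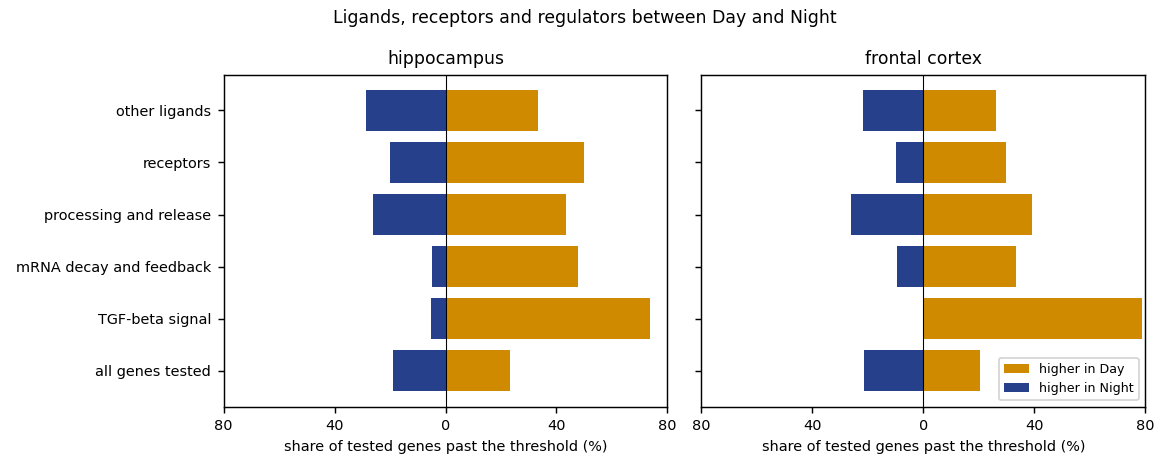
Share of the tested genes of 5 lists, and of all genes tested, that were higher in Day (right) or higher in Night (left) at an adjusted p under 0.05, in percent (horizontal), for hippocampus and frontal cortex. The bar for TGF-beta signalling reaches 14 of 19 and 15 of 19 genes higher in Day, beside 23.4% and 20.6% of all genes.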

How the data were processed

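Total RNA of CD11b-captured microglia was depleted of ribosomal RNA and sequenced. Per the labels, the authors aligned reads with STAR 2.7.3a to GRCm38.p5 and counted them with featureCounts (Subread 2.0.0). The deposited values are raw counts per gene, not normalized, for 49671 genes and 64 libraries. Whether counting used strand is not given in the sources used here. Genes inside introns of highly read hosts had a median of 9.53 counts per kb on the opposite strand and 4966 on the host strand, so counts were taken as stranded. No pair of replicates agreed within counting noise.

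Here CPM values were computed with TMM scaling. Tests used edgeR 4.0.16 (quasi-likelihood, R 4.3.3) on all genes past filterByExpr, with Benjamini-Hochberg adjustment and a threshold of 0.05. Changes are log2 Day minus Night or Hippocampus minus Frontal_cortex. Cxcl10, under the filter between phases, was tested by permutation of log2 CPM with a prior count of 2. DESeq2 1.42.0, other scalings, no filter, a replicate block, left-out replicates and covariates of marker scores were alternatives. Scripts were tested on simulated data.

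The 10 genes and the lists were chosen with earlier results of these data known. Other genes named are, in each list and region, the 2 largest rises and falls past the threshold where the average log2 CPM was 2 or more, and, for members of at least 10 CPM, the 3 most correlated genes. S100a8, S100a9, Ngp and Nr1d1 were named as markers, and untested list genes as examples. A gene that the rule would name is not reported here.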

Additional observations from a re-analysis of the deposited data

Results flagged for a closer look

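In 11 of 160 groups of 4 libraries 1 library stood far from the other 3 by Dixon's criterion, and chance gives about 8. Frontal_cortex Night Soci replicate 3 was far above its group for Ccl2 at 8.48 CPM (nearest 0.611 CPM) and for Ccl4 at 4.404 CPM (nearest 1.69 CPM). Frontal_cortex Day Soci replicate 2 was above its group for Il1b at 2.01 CPM (nearest 0.857 CPM, 21 reads) and for Cxcl10 at 1.92 CPM (nearest 0.330 CPM, 20 reads). In Day Ctr0 of frontal cortex, Ccl2 was low in replicate 1 at 0.278 CPM (5 reads, nearest 1.27 CPM) and Ccl12 was high in replicate 2 at 5.78 CPM. Ccl3 was low in Hippocampus Day Ctr0 replicate 2 at 0.826 CPM, from 11 reads. Cxcl16 was high in Hippocampus Day Cogn replicate 2 at 17.8 CPM and in Frontal_cortex Night Cogn replicate 4 at 17.2 CPM. Tgfb1 was high in Hippocampus Day Soci replicate 2 at 165 CPM (nearest 148 CPM) and in Hippocampus Day Cogn replicate 2 at 178 CPM (nearest 158 CPM).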

How the results depend on the processing

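Between Day and Night in hippocampus, 3 genes passed. None passed with library totals, with the scores of border macrophages and of neutrophils and monocytes, with the scores of 7 cell types or with replicate 4 alone (0 each), and 1 passed with the microglia score. In frontal cortex 2 passed, and 1 with library totals, with no count filter, with size factors by the median of ratios, with the border macrophage, neutrophil and monocyte scores, or without Frontal_cortex Day Soci replicate 2, 0 with the scores of 7 cell types or replicate 4 alone, and 0 to 1 with each replicate number left out. Between regions 1 passed, 3 with DESeq2, 3 with the genes above 1% of counts left out of the scaling, 4 with library totals, 2 with size factors, 2 without Frontal_cortex Night Soci replicate 3, 0 with replicate 4 alone, and 1 to 3 with each replicate left out. Under the count filter there were 0 genes with replicate 4 alone, and 1 to 2 with each replicate left out. Causes of these changes were not tested beyond what fewer samples give.

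Some changes turned direction. Pf4 is part of the border macrophage score and Ccr2 of the neutrophil and monocyte score. Fits with these scores therefore cannot show the change of either gene apart from its score. All 10 border macrophage markers were higher in Day of hippocampus, so that score moved with the phase there. With border macrophage, neutrophil and monocyte scores, the Day minus Night change in hippocampus was -0.48 for Ccl2, -0.0403 for Ccl3, -0.75 for Il1b, -0.0183 for Cxcl16, -0.23 for Tgfb1, -0.46 for Ccr1, -0.0651 for Ccr2 and -0.65 for Pf4, and -0.15 for Pf4 in frontal cortex. With the scores of 7 cell types it was -0.54 for Ccl2, -0.0357 for Cxcl16, -0.00768 for Il1a, -0.53 for Il1b, -0.29 for Tgfb1, -0.48 for Ccr1, -0.45 for Pf4 and -0.0654 for Tgfbi in hippocampus, and 0.29 for Il1b, 0.0230 for Cxcl14, 0.29 for Ltbp3, -0.0832 for Pf4 and -0.0632 for Tgfbi in frontal cortex. With the microglia score it was -0.26 for Ccl3, -0.00446 for Ccl4 and -0.0319 for Tgfb1 in frontal cortex and -0.0745 for Tgfb1 in hippocampus, and with the dissociation score -0.0817 for Ccl3 in frontal cortex. Library totals gave -0.0522 for Ccl3 in frontal cortex, -0.13 for Il1b and -0.14 for Tgfb1 in hippocampus, -0.0738 for Tgfb1 between regions and -0.0246 for the change of Cxcl16 between regions, and leaving out the genes above 1% of counts gave 0.00341 for that of Tnf.

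With replicate 4 alone, the change in frontal cortex was 0.27 for Ccl2, -0.00104 for Cxcl16, -0.0576 for Il1a, -0.0622 for Tgfb1 and 0.0307 for Tnip2, that of Tgfb1 in hippocampus -0.0777, and the difference of the change between regions -0.48 for Ccl3 and -0.32 for Ccl4. That of Ccl3 was -0.0686 without Frontal_cortex Night Soci replicate 3.

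With each replicate number left out in turn, the Day minus Night change ran from -0.11 to 0.36 for Ccl3 and from -0.69 to 0.11 for Cxcl10 (log2 CPM) in frontal cortex, and from -0.16 to 0.46 for Il1b and from -0.0293 to 0.0211 for Tgfb1 in hippocampus. The difference of that change between regions ran from -0.24 to 0.46 for Ccl3, from -0.0584 to 0.42 for Ccl4, from -0.00170 to 0.0703 for Cxcl16 and from -0.25 to 0.16 for Tnf, and the region difference of Ccl3 from -0.00770 to 0.20.

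With the replicate number as a block, 3 genes passed in hippocampus and 2 in frontal cortex, where Il1a was gained (adjusted p = 0.047) and Tnf lost (adjusted p = 0.0526). Libraries of the same number correlated with a median of 0.03 in frontal cortex (-0.436 to 0.610) and 0.02 in hippocampus (-0.614 to 0.731). Those of different numbers had medians of -0.03 and -0.01. Of 32 libraries in each region, 14 and 12 correlated best with their own number out of 4. Libraries of the same number were thus slightly more alike. The numbers were not taken as a pairing in the main fits, since this likeness was weak. Counting error was largest for Cxcl10, Ccl2 and Il1b.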
